A study of Mus musculus with 12 samples.

Results

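Lysophospholipid acyltransferases are membrane enzymes that put a fatty acyl chain back on a phospholipid that has lost one. In the cycle named after Lands, phospholipase A enzymes remove a chain from a membrane phospholipid and leave a lysophospholipid, and an acyltransferase then attaches a chain from an acyl-CoA. The choice of chain sets how saturated the membrane is, how much arachidonate is held ready for release, and how much lysophospholipid stays behind. In macrophages, liver and gut the best known member is Lpcat3, which loads polyunsaturated chains onto lysophosphatidylcholine and is a target gene of the liver X receptors (LXR), nuclear receptors for oxysterols.

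The mRNA levels of 9 such genes were followed in the aorta of mice given AZ6983, an agonist of the α7 nicotinic acetylcholine receptor (α7nAChR). The genes were Lpcat3, Mboat7, Mboat1, Mboat2, Lpcat1, Lpcat2, Lpcat4, Lclat1 and Lpgat1, which are 9 of the 25284 gene rows of the count table. Lpcat3 was selected on its rise with AZ6983 in these same libraries, so its difference between the groups is given as a description without a test. The other 8 were taken by family, whatever their values. All 9 passed the filter on low counts, as did 15857 genes in all.

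RNA sequencing had been done on the thoracic aorta of 12 male apoE-/- mice on a C57BL/6 background, aged 18 weeks, 1 library per mouse. Mice without apolipoprotein E keep cholesterol-rich lipoproteins in the blood and develop atherosclerosis. All 12 ate a high fat, cholesterol-enriched diet and carried subcutaneous osmotic minipumps for 8 weeks. The pumps delivered AZ6983 at 50 µmol per kg per day in 6 mice (A1 to A6) and the cyclodextrin-saline vehicle in 6 controls (C1 to C6). Wild-type mice, chow-fed mice and other doses were not among the samples, so every value below is from hyperlipidaemic aorta. Whole vessel was extracted, so fewer cells of a type and less RNA per cell cannot be told apart.

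Counts on genes ran from 25641329 to 29131708 per control library and from 23810036 to 35864666 per AZ6983 library. Reads assigned to no gene were 10.1% ± 1.55 of a control's reads in the table and 12.8% ± 1.36 of a treated mouse's (SD, n = 6 each, exact permutation test, two-sided, p = 0.0108). Every smooth muscle marker on a list of 5 was detected, and their summed level was 13098 to 17511 CPM (counts as a rate of the library's counts on genes, after TMM scaling) in controls and 10135 to 17528 CPM in AZ6983 mice, with mouse A5 lowest. Mouse A5 also had the highest sum of 6 brown fat markers, 5591 CPM against 2172 to 2872 CPM in the other AZ6983 mice and 2659 to 4284 CPM in controls. Mouse A4 had 1001 CPM of T cell and thymocyte markers, where no other mouse exceeded 39.6 CPM. For Lpcat3, Lpcat2, Lpgat1 and the likeness to Lpcat3, values without A5 are also given below, and for Lpcat3 without A4 and A5. Levels and fold changes of the related gene lists are given only with both mice included.

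Lpcat3 lies on the plus strand of chromosome 6, from 124663027 to 124704418 in GRCm38 (GENCODE M21), and its annotated coding transcript has 13 exons. The genomic stretch of 173 bases that ends 1 base before the annotated gene, GRCm38.p6 chr6:124662854-124663026, plus strand, is shown because Lpcat3 is the member the comparison turns on. The sequence is from RefSeq. Capitals mark the only CCAAT box and the 3 GC boxes (GGGCGG or its reverse complement).
Lpcat3 upstream: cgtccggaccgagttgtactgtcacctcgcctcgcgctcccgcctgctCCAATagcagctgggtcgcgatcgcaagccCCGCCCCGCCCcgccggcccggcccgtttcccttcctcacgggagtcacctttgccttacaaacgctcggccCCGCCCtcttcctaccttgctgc
Over 27025 RefSeq mouse promoter windows, 24.1% held CCAAT and 19.7% held GGGCGG on either strand, so neither is rare. Of the 9 members, 3 had a CCAAT in their window (Lpcat2, Lpcat3 and Mboat2) and 5 had a GC box (Lpcat3, Lpcat4, Mboat1, Mboat2 and Lpgat1). The stretch held 0 matches on either strand to AGGTCA repeated in the same direction after a spacer of 4 bases, the form LXR is known to bind, which 0.0074% of windows held. It also held 0 matches to TCACNCCAC, the core of a sterol regulatory element (0.662% of windows), and 0 to the E box CACGTG (3.50%). These are statements about letters in this window only.

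Lpcat3 was higher in every AZ6983 mouse than in any control. The controls ran from 34.8 CPM to 43.8 CPM with a median of 37.5 CPM, and the AZ6983 mice from 49.1 CPM to 73.9 CPM with a median of 56.6 CPM. The highest control was C2 and the highest AZ6983 mouse was A5, and the groups did not overlap. Raw counts were 1024 to 1109 in controls and 1253 to 2162 in AZ6983 libraries. Means were 38.2 ± 3.13 CPM and 58.0 ± 9.35 CPM (SD, n = 6 each), a ratio of 1.52. The log2 fold change fitted by edgeR was 0.60 (standard error 0.0983, 95% interval 0.39 to 0.82). Because the rise chose Lpcat3, this fold change may be too large and its interval is not read as a test. Over all genes tested, 0.259% lay wholly above the controls and 0.151% wholly below, and since the rise chose Lpcat3 nothing is read from this.

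The size of the difference depended in part on single mice. Without A5 the log2 fold change was 0.50, without A4 and A5 it was 0.49, and with each mouse left out in turn it ran from 0.50 to 0.65. Adding the percentage of reads assigned to no gene to the fit gave 0.48 (standard error 0.137, 95% interval 0.18 to 0.78). This interval is likewise not read as a test.

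Lpcat3 overlaps Emg1, a ribosome biogenesis gene on the opposite strand, over 334 bases of exon. Of the 75-base stretches of Lpcat3 transcripts, 7.49% also occur in Emg1 or its complement. The strand setting of the counting is not given in the sources used here, so reads from that overlap cannot be assigned from the table. Emg1 itself had a control mean of 35.6 ± 3.38 CPM and a treated mean of 35.6 ± 5.15 CPM (SD, n = 6 each). Its log2 fold change was −0.00 (95% interval −0.21 to 0.21, edgeR, adjusted p = 0.999). The part of reads from the overlap in the Lpcat3 values was not tested.

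**Figure D1:**
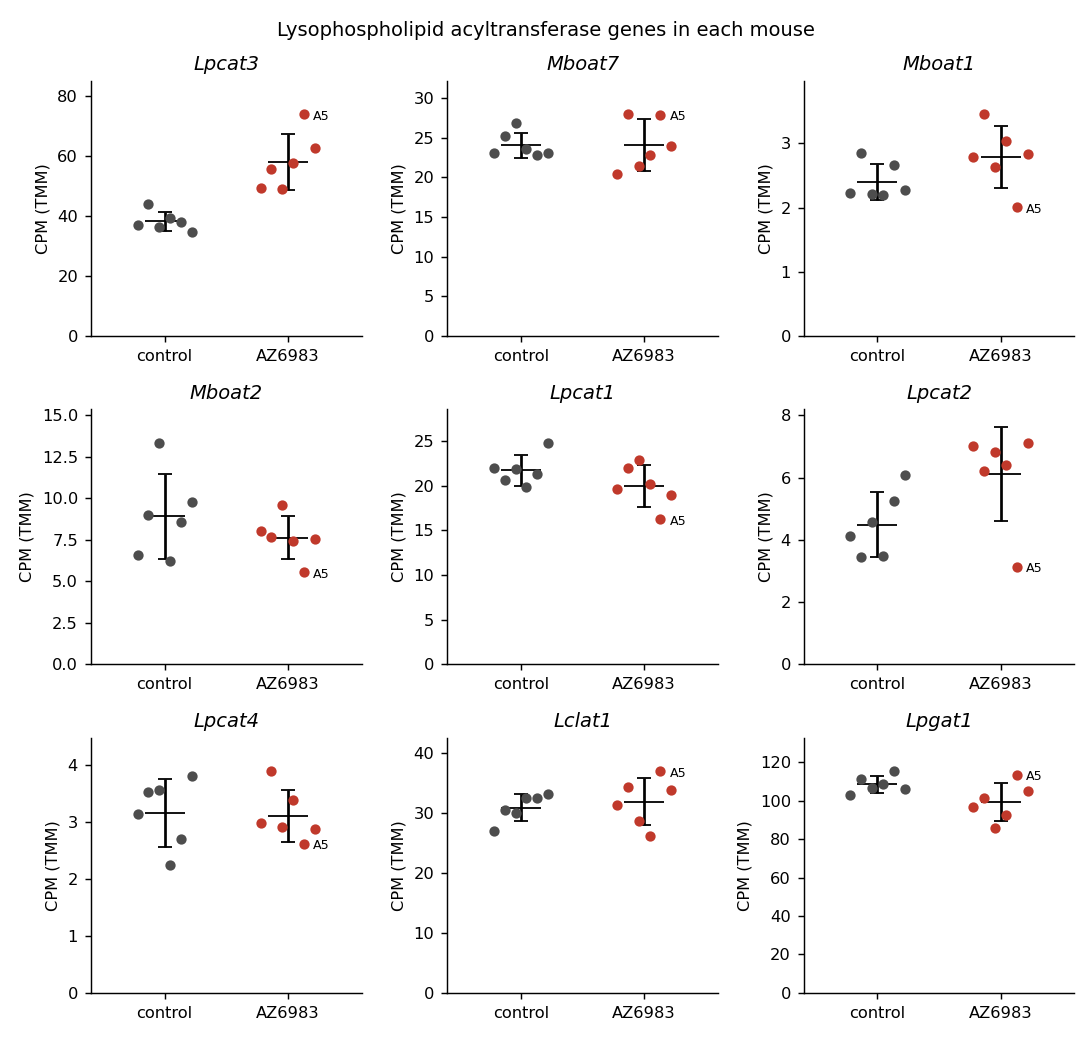
Level of each of the 9 genes in each mouse, in CPM after TMM scaling on axes that start at 0, with 6 controls in grey, 6 AZ6983 mice in red, and the mean ± SD in black. The groups separate for Lpcat3 and overlap for the other 8; mouse A5, labelled, is highest for Lpcat3 and lowest of 12 for Lpcat1, Lpcat2, Mboat1 and Mboat2.

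The groups overlapped for the other members of the MBOAT family, to which Lpcat3 belongs. Separation was rare over all genes tested (0.259% higher, 0.151% lower), so this overlap is not read as a trait of these members. Mboat7 attaches arachidonate to lysophosphatidylinositol and lies on the minus strand of chromosome 7 (3677789 to 3693523). It ran from 22.8 CPM to 26.8 CPM in controls (median 23.3 CPM) and from 20.4 CPM to 27.9 CPM in AZ6983 mice (median 23.4 CPM). The means were 24.1 ± 1.58 CPM and 24.1 ± 3.23 CPM, and the log2 fold change of −0.00 had a 95% interval of −0.19 to 0.19 (edgeR, adjusted p = 0.9999). The AZ6983 mice spanned the whole control range, with 2 above it and 2 below it. It shares 277 bases of exon with Tsen34 on the other strand, whose log2 fold change was −0.09 (edgeR, adjusted p = 0.762).

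Mboat1, which prefers lysophosphatidylethanolamine and lysophosphatidylserine, lies on chromosome 13 (30136489 to 30246717, plus strand) and was the scarcest member per length. Controls ran from 2.20 CPM to 2.85 CPM (median 2.26 CPM) and AZ6983 mice from 2.0 CPM to 3.45 CPM (median 2.81 CPM), and 5 of 6 AZ6983 mice lay above the control median. With 49 to 114 counts per AZ6983 library, the log2 fold change of 0.21 (standard error 0.144, 95% interval −0.10 to 0.53) did not pass the test (edgeR, adjusted p = 0.589). Its direction turned, to −0.018, when the percentage of reads assigned to no gene entered the fit. Mboat2, which handles lysophosphatidylcholine and lysophosphatidylethanolamine, lies on chromosome 12 (24830879 to 24964397, plus strand). Controls ran from 6.21 CPM to 13.3 CPM (median 8.79 CPM) and AZ6983 mice from 5.56 CPM to 9.60 CPM (median 7.60 CPM). The highest value was that of control C3, and the controls varied more from mouse to mouse, with a coefficient of variation of 28.9% against 17.0%. The log2 fold change was −0.22 (standard error 0.181, 95% interval −0.62 to 0.17, edgeR, adjusted p = 0.654), and without C3 it was −0.08.

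Among the members of the other structural class, which share motifs with the acylglycerolphosphate acyltransferases, Lpcat2 came nearest to Lpcat3 in direction and size. Lpcat2 makes phosphatidylcholine and also acetylates lyso-PAF to platelet-activating factor (PAF) in inflammatory cells. It lies on chromosome 8 (92855339 to 92919279, plus strand). Controls ran from 3.44 CPM to 6.09 CPM (median 4.35 CPM) and AZ6983 mice from 3.15 CPM to 7.12 CPM (median 6.62 CPM). Of the AZ6983 mice, 5 lay above the highest control, C6, and the remaining one, A5, was the lowest of all 12. The means were 4.49 ± 1.03 CPM and 6.12 ± 1.5 CPM (SD, n = 6 each). The log2 fold change of 0.45 (standard error 0.204, 95% interval 0.01 to 0.89) had an unadjusted p = 0.0476 and did not pass after adjustment over all genes (edgeR, adjusted p = 0.487). Without A5 the log2 fold change was 0.56 (edgeR, adjusted p = 0.218) and the groups no longer overlapped, a setting in which 169 genes had no overlap against 65 over 12 mice. Most treated mice were thus above all controls in Lpcat2, but the difference did not pass 10% FDR either with A5 or without it.

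Since Lpcat2 is a gene of inflammatory cells, marker levels were set beside it. The summed level of 6 neutrophil markers was 12.9 to 49.3 CPM in controls and 29.6 to 229 CPM in AZ6983 mice. In edgeR, 6 of 6 were higher at an unadjusted p below 0.05 and 0 at 10% FDR, beside 7.38% and 0% over all genes. The list holds Ngp, Ltf and Camp, which the study had already reported as higher in these mice, so the count is not independent of those results. Markers of 1 cell type can also rise together, so the 6 are not separate results. Of the T cell and thymocyte markers, 6 of 6 tested were likewise higher at that unadjusted threshold in edgeR. Their summed level was 1001 CPM in A4 and at most 39.6 CPM in any other mouse. In the order A1 to A6, the neutrophil sums were 83.2, 29.6, 153, 105, 51.3 and 229 CPM, and Lpcat2 was at 7.02, 6.22, 6.82, 6.41, 3.15 and 7.12 CPM. Mouse A6 was highest in both, A2 was lowest in the neutrophil sum and A5 was lowest in Lpcat2. The sum of 8 macrophage markers was 828 to 1448 CPM in controls and 704 to 1428 CPM in AZ6983 mice, lowest in A5, and 0 of 8 passed an unadjusted p of 0.05 in edgeR. None of these markers was at 0 in every library. Their part in the Lpcat2 values was not tested.

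Lpcat1, the enzyme that makes dipalmitoyl phosphatidylcholine for lung surfactant and also acts on lyso-PAF, lies on chromosome 13 (73467197 to 73516422, plus strand). Controls ran from 19.8 CPM to 24.8 CPM (median 21.6 CPM) and AZ6983 mice from 16.2 CPM to 22.8 CPM (median 19.9 CPM). In 3 AZ6983 mice the value was below the lowest control, and none was above the highest. The log2 fold change was −0.12 (standard error 0.0846, 95% interval −0.30 to 0.06, edgeR, adjusted p = 0.601). Lpcat4, an acyltransferase for lysophosphatidylethanolamine and lysophosphatidylcholine, lies on chromosome 2 (112239468 to 112247111, plus strand). It ran from 2.23 CPM to 3.81 CPM in controls (median 3.33 CPM) and from 2.61 CPM to 3.88 CPM in AZ6983 mice (median 2.94 CPM). Its log2 fold change was −0.02 with a wide 95% interval, −0.36 to 0.31 (edgeR, adjusted p = 0.966), at 60 to 127 counts per library.

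The names of Lclat1 and Lpgat1 refer to acidic lysophospholipids, which need not be their main substrates. Lclat1, also called ALCAT1, acylates lysocardiolipin and lies on chromosome 17 (73107985 to 73243368, plus strand). Controls ran from 26.9 CPM to 33.1 CPM (median 31.4 CPM) and AZ6983 mice from 26.2 CPM to 36.9 CPM (median 32.6 CPM), highest in A5. The log2 fold change was 0.05 (95% interval −0.14 to 0.23, edgeR, adjusted p = 0.866). Lpgat1, first described as a lysophosphatidylglycerol acyltransferase, lies on chromosome 1 (191717834 to 191784255, plus strand) and had the most counts of the 9, 2194 to 3477 per library. Controls ran from 103 CPM to 115 CPM (median 108 CPM) and AZ6983 mice from 86.0 CPM to 113 CPM (median 99.2 CPM). In 4 AZ6983 mice Lpgat1 was below the lowest control, while A5 and A6 lay inside the control range. The log2 fold change was −0.13 (standard error 0.0646, 95% interval −0.27 to 0.01, edgeR, unadjusted p = 0.0687, adjusted p = 0.511). Without A5 it was −0.19 (edgeR, adjusted p = 0.273).

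Counted together, 3 of the other 8 members were higher and 5 lower in AZ6983 mice, and their median log2 fold change was −0.01, beside 0.01 over all genes tested. At 10% FDR 0 of the 8 passed edgeR's test and 0 passed with DESeq2, and the smallest adjusted p in edgeR was 0.487. The share of all genes called at 10% FDR was 0% with edgeR (0 of 15857, although 1616 had an unadjusted p below 0.05) and 0.523% with DESeq2 (92 genes). At an unadjusted p below 0.05 the only one of the 8 was Lpcat2, in the higher direction, and over all genes that threshold was met by 7.38% in the higher and 2.81% in the lower direction. In 0 of the 8 were the groups free of overlap, beside 0.259% of all genes tested in the higher and 0.151% in the lower direction. So low a share makes 0 of 8 the usual result.

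**Figure D2:**
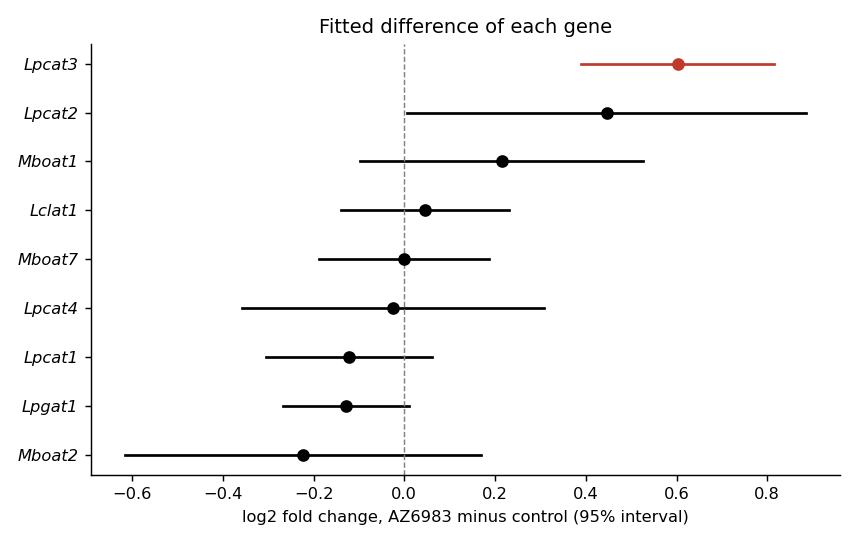
Fitted log2 fold change, AZ6983 minus control, of the 9 genes with its 95% interval from edgeR (6 mice per group). Lpcat3, chosen for this difference and drawn in red, is at 0.60, and its interval is not read as a test. The intervals of the other 8 include 0 except that of Lpcat2, which starts at 0.01.

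Lpcat3 and Lpgat1 were the most abundant members per length. Divided by the length of all annotated exons, the mean level over the 12 mice was 14.7 CPM per kilobase for Lpcat3 and 13.6 for Lpgat1. Lclat1 followed at 6.41, Lpcat1 at 4.50, Mboat7 at 2.89, Lpcat2 at 1.57, Lpcat4 at 1.11, Mboat2 at 0.865 and Mboat1 at 0.710 CPM per kilobase. Each neighbour in this order was compared within mice by an exact sign-flip permutation test, two-sided, with adjustment over 8 pairs. All pairs differed at an adjusted p below 0.05 (0.000977 to 0.0234) except the first, in which Lpcat3 exceeded Lpgat1 in 6 of 12 mice (exact permutation p = 0.515). The order within that first pair differed between the groups, and the difference that chose Lpcat3 enters it, so nothing is read from that p. In controls Lpgat1 led with 14.3 ± 0.574 CPM per kilobase against 11.7 ± 0.958 for Lpcat3, and in AZ6983 mice Lpcat3 led with 17.8 ± 2.86 against 13.0 ± 1.27 (SD, n = 6 each). The place of Mboat7 depends on the length used, since its longest transcript is 3399 bases and its exons together 8339 bases. The annotated coding transcripts of Lpgat1 (2792 bases of 7610) and Mboat2 (2351 bases of 9566) are also much shorter than their exons together. The order by coding transcript was not tested, so the places of these genes hold only for the lengths used.

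As a share of the summed CPM per kilobase of the 9 genes, Lpcat3 made up 26.7% ± 1.90 in controls (24.1% to 29.4%) and 36.1% ± 3.14 in AZ6983 mice (33.1% to 41.2%, SD, n = 6 each). The summed CPM of the other 8 was 204 ± 7.90 in controls (191 to 211) and 195 ± 12.4 in AZ6983 mice (181 to 208), so the ranges of that sum overlapped.

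**Figure D3:**
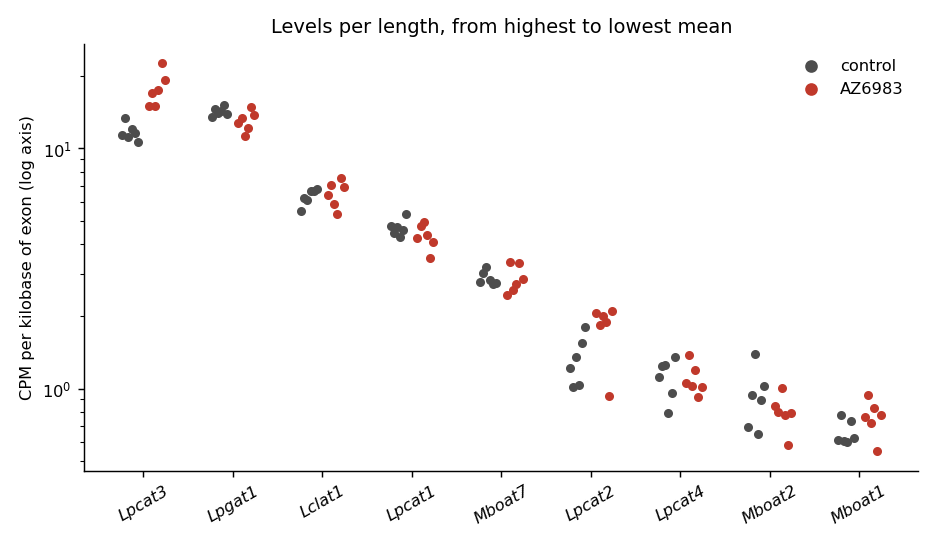
Level of each gene per kilobase of annotated exon, on a log axis, with controls in grey and AZ6983 mice in red (6 points each), ordered by the mean of all 12 mice. Lpcat3 and Lpgat1 stand highest, between 10.7 and 22.6 CPM per kilobase; Mboat1 is lowest.

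Within groups, Lpcat3 was compared with genes of sterol and fatty acid control over the 6 mice of each group, 8 relations in all, each by exact permutation and with Benjamini-Hochberg adjustment over the 8. Scd2 encodes a stearoyl-CoA desaturase that makes monounsaturated acyl-CoA. In AZ6983 mice Lpcat3 followed Scd2 closely, with Pearson's r = 0.989 (exact permutation p = 0.00833, adjusted 0.0667) and Spearman's rho = 0.943 (exact permutation p = 0.0167, adjusted 0.133). Leaving out the 2 mice farthest from the median of Scd2 gave r = 0.974 over 4 mice. In controls r was −0.12 (rho = −0.26, exact permutation p = 0.819 for r and 0.658 for rho). The difference between the groups' correlations was not tested, and after adjustment neither group's relation passed 0.05.

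Srebf1, which encodes the sterol regulatory element-binding protein 1, gave r = 0.731 in AZ6983 mice (rho = 0.543, exact permutation p = 0.133 and 0.297, adjusted 0.385 and 0.594) and −0.17 in controls (rho = −0.09, exact permutation p = 0.806 and 0.919). Abca1, the cholesterol exporter, gave r = 0.674 in AZ6983 mice (rho = 0.657, exact permutation p = 0.144 and 0.175, adjusted 0.385 and 0.594) and 0.000893 in controls (rho = 0.0286, exact permutation p = 0.950 and 1). In controls r without the 2 farthest mice was 0.259 for Srebf1 and 0.844 for Abca1. Without the 2 farthest AZ6983 mice r was 0.932 for Srebf1 and 0.532 for Abca1. The share of reads on no gene gave r = 0.626 in controls (rho = 0.143, exact permutation p = 0.225 and 0.803) and −0.672 without the 2 farthest mice, one of them C2. In AZ6983 mice it gave r = 0.286 (rho = 0.543, exact permutation p = 0.586 and 0.297), and 0.689 without the 2 farthest.

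**Figure D4:**
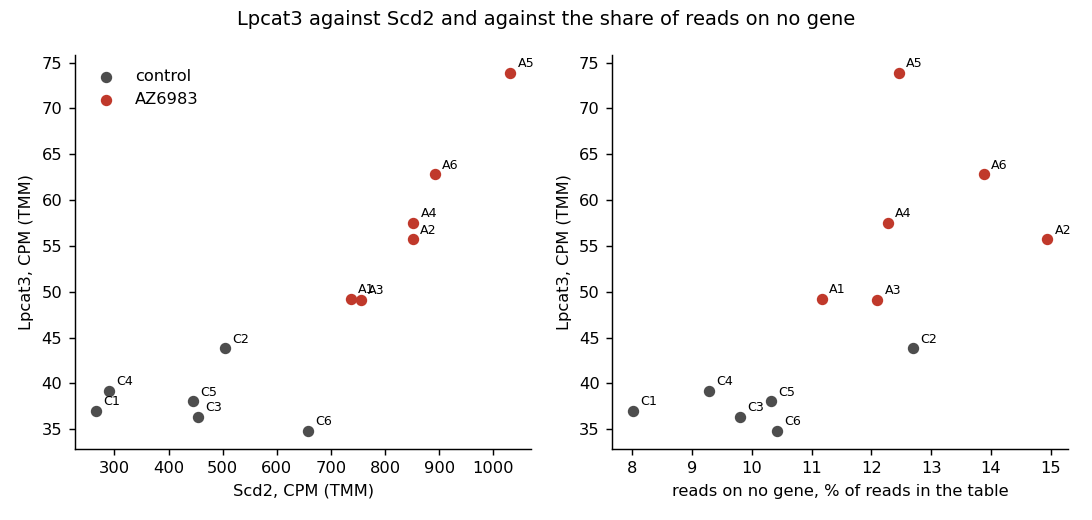
Lpcat3 in CPM against Scd2 in CPM (left) and against the percentage of the table's reads that fell on no gene (right), 1 point per mouse, controls grey and AZ6983 red. In the 6 AZ6983 mice Lpcat3 rises with Scd2 (r = 0.989), while control C2, with the highest control Lpcat3, has a share of reads on no gene of 12.7%, inside the AZ6983 range.

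The genes most like Lpcat3 from mouse to mouse were sought after removing each group's mean, so that the treatment difference did not enter. Among 11077 genes with a mean of at least 5 CPM, over 12 mice, the highest Pearson's r belonged to Dgcr6 (0.967), Fem1a (0.961), Adssl1 (0.959), Pde8a (0.950), Enpp2 (0.948), Aldh4a1 (0.933), C1qbp (0.932) and Jade1 (0.932). Mouse A5 had the highest value of Dgcr6, 23.9 CPM against 14.6 to 19.8 CPM in the other 11. Without A5 the r of these 8 genes ran from 0.859 to 0.937, and the ranking changed. Grwd1 then came first (0.954), 3 of the 8 stayed among the first 8 (Dgcr6, Adssl1 and Fem1a), and Jade1, Aldh4a1 and C1qbp fell to ranks 34, 37 and 39. Enpp2 encodes autotaxin, the enzyme that turns lysophosphatidylcholine into lysophosphatidic acid, and unlike Lpcat3 its mean was not higher with AZ6983 (log2 fold change −0.11, edgeR, adjusted p = 0.732). By the same measure over 12 mice, Scd2 was far from the top, with r = 0.244 and rank 3803 of 11077. Srebf1 (r = 0.281, rank 3569) and Abca1 (r = 0.374, rank 3046) were also far down.

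Among the members themselves, Lpgat1 (r = 0.782) and Mboat7 (0.637) varied with Lpcat3 within groups, and Lpcat1 (−0.80) and Lpcat2 (−0.78) varied against it. Without A5 these became 0.608, 0.448, −0.62 and −0.51. The closest pair of members was Lclat1 with Lpgat1 (r = 0.806), followed by Lpcat3 with Lpgat1 and by Lpcat1 with Lpcat2 (0.777). These r values are descriptions over 12 mice that share the same libraries. Mouse A5 was lowest of 12 for 4 members (Lpcat1, Lpcat2, Mboat1 and Mboat2) and highest for 2 (Lpcat3 and Lclat1). The same mouse had the highest brown fat and the lowest smooth muscle and macrophage marker sums given above, whose part in these values was not tested.

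The enzymes on either side of the reacylation step were followed next. At 10% FDR edgeR called 0 of them, but it called 0 of all 15857 genes tested, so that count says nothing particular about these enzymes. At an unadjusted p below 0.05, 7.38% of all genes were higher and 2.81% lower, to be read beside the counts of each list below. Of 16 other acyltransferases for glycerolipids and sterols, 12 were tested, 0 had an unadjusted p below 0.05 and the median log2 fold change was 0.04 (edgeR, smallest adjusted p = 0.561). The smallest unadjusted p values belonged to Dgat2, which makes triglyceride (control mean 402 ± 49.1 CPM, treated mean 465 ± 94.0 CPM), to Gpat3, listed as Agpat9 (10.2 ± 2.91 and 12.2 ± 2.78 CPM), and to Agpat4 (13.4 ± 1.11 and 12.3 ± 1.72 CPM). Of 26 phospholipases that release acyl chains, 15 were tested and 0 had an unadjusted p below 0.05 (edgeR, median 0.05, smallest adjusted p = 0.492). Pla2g4a, the cytosolic phospholipase that releases arachidonate, had a control mean of 68.9 ± 7.56 CPM and a treated mean of 54.7 ± 13.1 CPM, lowest in A5 at 30.4 CPM (log2 fold change −0.33, edgeR, adjusted p = 0.492). Pla2g16, a phospholipase abundant in fat, was at 98.0 ± 21.2 and 117 ± 14.1 CPM, and Pnpla7, a lysophospholipase, at 16.2 ± 1.08 and 17.6 ± 0.989 CPM (SD, n = 6 each).

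Of 15 genes that activate or carry fatty acids as acyl-CoA, 13 were tested, with a median of −0.00. Acsl3, a long-chain acyl-CoA synthetase, ran from 30.6 to 48.1 CPM in controls (median 36.5 CPM) and from 41.0 to 68.1 CPM in AZ6983 mice (median 47.0 CPM), highest in A5. It was the only one with an unadjusted p below 0.05 (log2 fold change 0.42, edgeR, unadjusted p = 0.00996, adjusted p = 0.448), and 6 of 6 AZ6983 mice lay above the control median although the groups overlapped. Slc27a3, a fatty acid transport protein, was at 2.89 ± 0.445 and 3.53 ± 0.617 CPM, and Acbd5, a peroxisomal acyl-CoA binding protein, at 117 ± 5.99 and 108 ± 12.3 CPM in controls and AZ6983 mice. Of 22 genes of new phospholipid synthesis, all were tested, 7 were higher, 15 lower and 0 had an unadjusted p below 0.05 (edgeR, median −0.04, smallest adjusted p = 0.535). Those with the smallest unadjusted p were Lpin3, a phosphatidate phosphatase (15.7 ± 3.44 and 13.0 ± 2.16 CPM), Chpt1 (999 ± 144 and 874 ± 221 CPM) and Cept1 (57.1 ± 5.59 and 53.4 ± 5.17 CPM), both of which make phosphatidylcholine.

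Of 19 genes that break down or sense PAF and lysophospholipids, 16 were tested with a median of 0.00. Pla2g7, the lipoprotein-associated phospholipase that hydrolyses PAF, ran from 56.2 to 79.3 CPM in controls (median 70.6 CPM) and from 47.4 to 74.1 CPM in AZ6983 mice (median 51.2 CPM). In 5 of 6 AZ6983 mice it lay below the lowest control, and A5 lay inside the control range. It was the only one with an unadjusted p below 0.05 and did not pass 10% FDR (log2 fold change −0.35, standard error 0.116, edgeR, unadjusted p = 0.0105, adjusted p = 0.450). Pafah2, an intracellular PAF hydrolase, was at 24.8 ± 2.13 and 21 ± 4.97 CPM, and Lpar1, a lysophosphatidic acid receptor, at 43.7 ± 5.57 and 49.4 ± 7.21 CPM (SD, n = 6 each).

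The list of LXR and its targets had the largest median of the 6 lists. Of 17 genes, 14 were tested, 12 were higher and 2 lower, and the median log2 fold change was 0.34. In edgeR 0 passed 10% FDR (smallest adjusted p = 0.157), while 6 were higher and 1 lower at an unadjusted p below 0.05 (7.38% and 2.81% over all genes). DESeq2 called 4 at 10% FDR (0.523% over all genes). The 6 were Srebf1, Scd2, Apoc1, Abca1, Abcg1 and Mylip, and the 1 lower was Smpdl3a. In 2 of the 14, Srebf1 and Scd2, every AZ6983 mouse lay above every control, as it did in 0.259% of all genes tested. Srebf1 ran from 112 to 218 CPM in controls (median 132 CPM) and from 249 to 342 CPM in AZ6983 mice (median 295 CPM). Scd2 ran from 266 to 657 CPM in controls (median 450 CPM) and from 737 to 1031 CPM in AZ6983 mice (median 851 CPM). Apoc1, a lipoprotein component made by macrophages among others, ran from 6.02 to 20.3 CPM in controls (median 12 CPM) and from 18.7 to 46.0 CPM in AZ6983 mice (median 28.4 CPM). In each of these 3 genes the lowest treated mouse was near the highest control or above it. Abca1 averaged 322 CPM without and 461 CPM with AZ6983 (log2 fold change 0.52, edgeR, unadjusted p = 0.00106, adjusted p = 0.447). The receptors themselves had log2 fold changes of 0.08 for Nr1h3 (LXRα; edgeR, adjusted p = 0.799) and 0.06 for Nr1h2 (LXRβ; edgeR, adjusted p = 0.662). These genes come from the same 12 libraries in which Lpcat3 was selected and were listed with those results known.

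**Figure D5:**
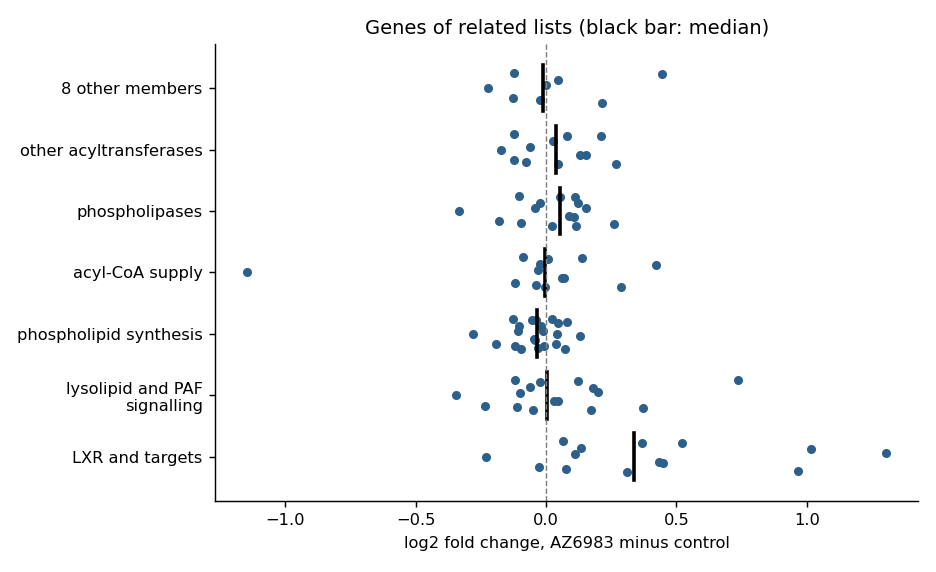
Fitted log2 fold change, AZ6983 minus control, of each tested gene in the 8 other members and in the 6 related lists, with the median as a black bar. The medians lie between −0.04 and 0.05 except that of the LXR list, at 0.34.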

How the data were processed

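Total RNA of thoracic aorta was depleted of ribosomal RNA, made into stranded libraries and sequenced at both ends by 75 bases. The authors deposited raw counts per gene symbol for 25284 genes. The submitters' processing notes name CASAVA 1.8.2, STAR 2.5.2b, HTSeq 0.6.1p1 and mm10; the annotation and strand setting are not given in the sources used here. The 3 rows that name no gene (reads on no gene, 8.02% to 14.9%; on several places, 18.1% to 23.2%; ambiguous, 0.606% to 0.698%) were left out of library sizes. RNA was not selected for poly(A), so unspliced transcripts add counts. Columns were matched to mice by the numbers in their titles, 11 in full and A1 by 3 of 4 digits. No pair of the 66 library pairs was a copy (chi-square per degree of freedom 13.1 to 247). The labels do not say how mice were caged or processed. Column names also end in a number of unstated meaning, 3 to 7 and 12 in controls. The p-values weigh group differences against the spread between mice, taken as independent. An effect of caging or processing shared within a group could not be told apart from treatment.

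Counts were tested with edgeR 4.0.16 (R 4.3.3; TMM, filterByExpr, quasi-likelihood, no covariate), with Benjamini-Hochberg adjustment over 15857 genes and a threshold of 10% FDR. The scripts were tested on simulated data. Levels per kilobase used GENCODE M21, matched by symbol (24006 of 25284 rows). Alternatives were DESeq2 1.42.0, limma-voom (limma 3.58.1) with and without quality weights, 2 other scalings, no filter, a mean of 50 counts, 5% FDR, the percentage of reads assigned to no gene as covariate, other lengths and each mouse left out. Leaving out A4 and A5 together, and A5 in the likeness, was chosen after seeing the data. Members and gene lists were chosen with earlier results of these data known. Genes named were the members, Srebf1, Abca1, Scd2, the 8 most like Lpcat3, and in each list those past 10% FDR and the 3 of smallest unadjusted p. Emg1, Tsen34, the LXR receptors, and Abcg1, Mylip and Smpdl3a were named after their values were seen.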

Additional observations from a re-analysis of the deposited data

Results flagged for a closer look

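Of 22 groups of 6 values tested for a mouse far from the others (the 9 genes, the counts on genes and the share of reads on no gene, each in both groups), 1 was marked, where chance marks about 1 in 20, or 1.1 groups. It was Lpcat2 in AZ6983 mouse A5, at 1.69 log2 CPM, where the other 5 AZ6983 mice lay between 2.65 and 2.85 log2 CPM.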

How the results depend on the processing

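Of 168 alternative fold changes of the 8 members other than Lpcat3, 155 kept the direction given above and 13 turned direction. None crossed the threshold, but most settings called 0 of all genes, so nothing is read from that. The 21 alternative fold changes of Lpcat3, which has no test, were all positive, and since its rise chose the gene nothing is read from their sign. When the percentage of reads assigned to no gene entered the fit, Mboat1 was at −0.018 and Lclat1 at −0.070. Lpcat4 was at 0.033 with voom quality weights and from −0.11 to 0.035 with a mouse left out, Mboat7 at 0.0082 with the filter at a mean of 50 counts and from −0.065 to 0.042 with a mouse left out, and Lclat1 from −0.020 to 0.095 with a mouse left out; the cause was not tested. Of all genes, 92 were called by DESeq2, 4 with voom quality weights and 0 to 27 with a mouse left out (27 without A5, 1 without C6 and 1 without A1), and 0 without A4 and A5. In none of these settings was 1 of the 8 other members called. Genes without overlap, 65 over 12 mice, were 76 to 217 with a mouse left out, where fewer mice must separate, and the other 8 members gave 0 to 1, which was Lpcat2 without A5. In the order per length, the log2 ratio of Lpcat3 to Lpgat1 was 0.46 with the longest transcript, −0.29 in controls alone and 0.44 in AZ6983 mice alone. Lpcat1 to Mboat7 was −0.32 with the longest transcript. In controls alone Lpcat2 to Lpcat4 (0.24) and Lpcat4 to Mboat2 (0.29), and in AZ6983 mice alone Mboat2 to Mboat1 (0.068), no longer passed, with 6 mice in place of 12. DESeq2 gave a median of −0.0082 for the PAF and lysophospholipid list and called 4 of the LXR list. No paired analysis was possible because the labels tie no mouse of one group to a mouse of the other. Depth limits Mboat1, Lpcat4 and Lpcat2 most, which had 49 to 241 counts per library.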
